A study of Mus musculus with 4 samples.

Results

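Interferon-stimulated genes are the genes that cells switch on when they sense an interferon, and 33 of them were followed here among 27998 genes counted in all 4 libraries. They were chosen by symbol, from genes known to answer to type I interferon or to interferon gamma, and all 33 symbols are present in the files. By role they are 4 transcription factors (Irf7, Irf1, Irf9, Stat2), the ubiquitin-like modifier Isg15 with its protease Usp18, 6 effectors that bind or help degrade RNA (Ifit1, Ifit2, Ifit3, Oas1a, Oasl1, Oasl2), 7 other antiviral effectors (Rsad2, Mx1, Bst2, Ifitm3, Ifi44, Rtp4, Xaf1), 4 nucleic acid sensors (Ifih1, Zbp1, Ifi204, Ifi205), 8 interferon-inducible GTPases (Gbp2, Gbp3, Gbp5, Gbp7, Igtp, Irgm1, Iigp1, Ifi47) and 2 further genes (Ifi27l2a, Ly6i). The study worked with male C57BL/6 wild-type mice and set the liver cells of those that ate food without methionine and choline (MCD) for 6 weeks against those on a control food (NCD), with 2 libraries of droplet single-cell RNA sequencing per diet. The mice were 8 weeks old at purchase, and both groups share strain, sex and sort. The sort took living CD45+ Ly6G- cells with intermediate CD11b, and its F4/80 gate is given as high in the sample labels and as low in the series text. No label says if a library came from 1 mouse or from several, so the spread between 2 libraries may be partly technical.

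Type I interferons and interferon gamma signal through JAK kinases to STAT proteins. A complex that holds STAT2 and IRF9 binds interferon-stimulated response elements (ISRE), and STAT dimers bind gamma-activated sites (GAS). IRF1 and IRF7 are themselves induced by interferons and in turn act on such promoters. Mice fed without methionine and choline develop a fatty, inflamed liver that recruits blood monocytes.

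The libraries differed in ways that follow the diet. After filtering they held 2950 and 3138 cells on MCD, with a median of 12038 and 12300.0 UMIs per cell, and 1735 and 1786 cells on NCD, with a median of 2173 and 2253.5 UMIs. In Ly6Chi-like monocytes ribosomal protein genes took 19.6% and 19.2% of UMIs on MCD and 31.9% and 30.2% on NCD, and mitochondrial genes took 3.48% and 3.20% on MCD and 7.54% and 7.32% on NCD; their part in the results was not tested. Each library belongs to 1 diet and no label gives a batch, so diet and preparation cannot be told apart. Counting differed within MCD as well: replicate 1 was counted on 27998 genes, and MCD replicate 2 and both NCD libraries on 28692. Only the 27998 shared genes were used. Most clusters held cells of 1 diet: the Ly6Chi-like class is clusters 0 and 16 for MCD cells and cluster 2 for NCD cells, the Ly6Clo-like class is cluster 9 for MCD and 8 for NCD cells, and the cDC2-like class is cluster 5 for MCD and 4 for NCD cells. Clusters were found without the 33 genes and without the other interferon genes. Pairs of libraries shared 1 to 8 cell barcodes, and no doublet caller was used, so doublets must be taken as present. The samples are labelled monocytes, and the largest class carried Ly6Chi markers (Ly6c2, Ccr2 and others), 792 and 871 MCD cells and 455 and 477 NCD cells, whose 12 markers took 1.12% and 1.18% of UMIs on MCD and 1.11% and 1.14% on NCD. In that class markers of C1q-expressing macrophages took 0.503% and 0.541% of UMIs on MCD and 0.134% and 0.133% on NCD, and those of lipid-associated macrophages took 0.282% and 0.292% on MCD and 0.0927% and 0.0934% on NCD; 2 markers of lipid-associated macrophages were at 0 on NCD, and their part in the results was not tested. Liver endothelial cells, which a CD45 gate should remove, were present in every library.

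The promoters below show which interferon elements lie next to the starts of some of the genes. RefSeq promoter windows (GRCm38.p6, 250 bases before to 50 after the start) matched 25 of the 33 genes. The ISRE core, GAAA followed after any 2 bases by GAAA and searched on both strands, was found in 16 of these 25 genes, a share of 64%, and in 3.99% of the 27025 genes with a window. Each of the sequences runs 5′ to 3′ on the gene's strand from 250 bases before to 30 bases after the start, with ISRE cores and the GAS letters TTCNNNGAA (in 9.55% of genes, read on both strands) in capitals, and overlapping matches run together. Ifitm3, Bst2 and Gbp2 are the 3 with the highest level among genes with the core, Irf1 is the highest without it, and Ifit1 was added after its values were seen.
Ifitm3: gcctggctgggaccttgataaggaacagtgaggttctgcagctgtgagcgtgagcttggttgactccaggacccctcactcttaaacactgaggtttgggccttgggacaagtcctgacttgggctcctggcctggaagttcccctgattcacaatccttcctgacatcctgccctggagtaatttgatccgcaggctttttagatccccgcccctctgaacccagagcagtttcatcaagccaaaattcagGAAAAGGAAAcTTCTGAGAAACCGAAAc
Bst2: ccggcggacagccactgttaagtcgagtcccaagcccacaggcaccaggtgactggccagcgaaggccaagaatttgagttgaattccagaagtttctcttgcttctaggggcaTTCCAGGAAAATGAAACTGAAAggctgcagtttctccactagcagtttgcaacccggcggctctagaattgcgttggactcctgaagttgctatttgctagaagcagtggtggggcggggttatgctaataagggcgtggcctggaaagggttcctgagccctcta
Gbp2: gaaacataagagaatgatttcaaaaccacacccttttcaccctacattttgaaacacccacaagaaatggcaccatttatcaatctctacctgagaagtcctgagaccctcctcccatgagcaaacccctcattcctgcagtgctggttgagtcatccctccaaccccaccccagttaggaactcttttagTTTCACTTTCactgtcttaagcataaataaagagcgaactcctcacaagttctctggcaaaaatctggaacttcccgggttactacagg
Irf1: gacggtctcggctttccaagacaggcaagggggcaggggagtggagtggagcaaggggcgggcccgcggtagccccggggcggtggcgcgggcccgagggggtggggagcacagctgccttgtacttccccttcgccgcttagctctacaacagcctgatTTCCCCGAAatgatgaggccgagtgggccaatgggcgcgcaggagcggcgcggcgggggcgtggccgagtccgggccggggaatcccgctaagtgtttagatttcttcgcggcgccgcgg
Ifit1: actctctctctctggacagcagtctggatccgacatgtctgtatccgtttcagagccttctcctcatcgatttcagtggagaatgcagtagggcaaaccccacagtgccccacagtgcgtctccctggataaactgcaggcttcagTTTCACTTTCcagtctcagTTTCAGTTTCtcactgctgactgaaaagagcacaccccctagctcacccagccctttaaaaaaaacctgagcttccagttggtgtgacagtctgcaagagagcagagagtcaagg
Ifitm3 lies on chr7:141010715-141010994 (minus strand) with 2 ISRE cores and an overlapping GAS match, all after the start. Bst2 lies on chr8:71537443-71537722 (minus strand) with 2 overlapping ISRE cores and a GAS match before the start. Gbp2 is on chr3:142620413-142620692 and Ifit1 on chr19:34640639-34640918, both on the plus strand, with 1 and 2 cores on the reverse strand. Irf1 (chr11:53769764-53770043, plus strand) has a GAS match and no core in the windows searched, nor has Irf7 a core in its window. In Ly6Chi-like monocytes the median log2 fold change was -1.17 over the 16 genes with a core, which ran from -2.48 to 0.78, and -0.69 over the 9 without, which ran from -2.22 to 0.97. Whether the core goes with the fold change was not tested.

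In Ly6Chi-like monocytes, the classical inflammatory monocytes of blood, most interferon-stimulated genes were lower on MCD while 2 of their own transcription factors were higher. Of the 33 genes, all of which could be tested, 21 fell, 2 rose and 10 did not pass the test; over all 10087 genes tested, 15.1% fell and 15.8% rose. The median log2 fold change was -1.004 over the 33 genes and 0.05 over all genes. All counts and adjusted p-values of genes come from the edgeR quasi-likelihood F test with Benjamini-Hochberg adjustment over all genes tested, with TMM scaling, an adjusted p under 0.05 as the threshold, and 2 libraries per diet. Fold changes are MCD over NCD, each ± its standard error (SE), and values of a diet are given for replicate 1 and then replicate 2 in CPM, UMIs scaled to a common total, after TMM scaling. With library totals in place of TMM factors the median of all genes moved to 0.55 and that of the 33 genes to -0.50. There 14 of the 33 fell and 4 rose, while 4590 of all 10087 genes tested passed in either direction. Oas1a and Xaf1 were the 2 added to Irf7 and Irf1. With interferon genes kept in the clustering 11 fell, while 2964 of 9911 genes passed in either direction. With no filter on low counts 10 fell, while 1756 of 15486 genes passed. Gbp3, Isg15, Ifitm3, Ifi27l2a and Ifit1 passed under all 12 alternatives tried for this class.

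**Figure D1:**
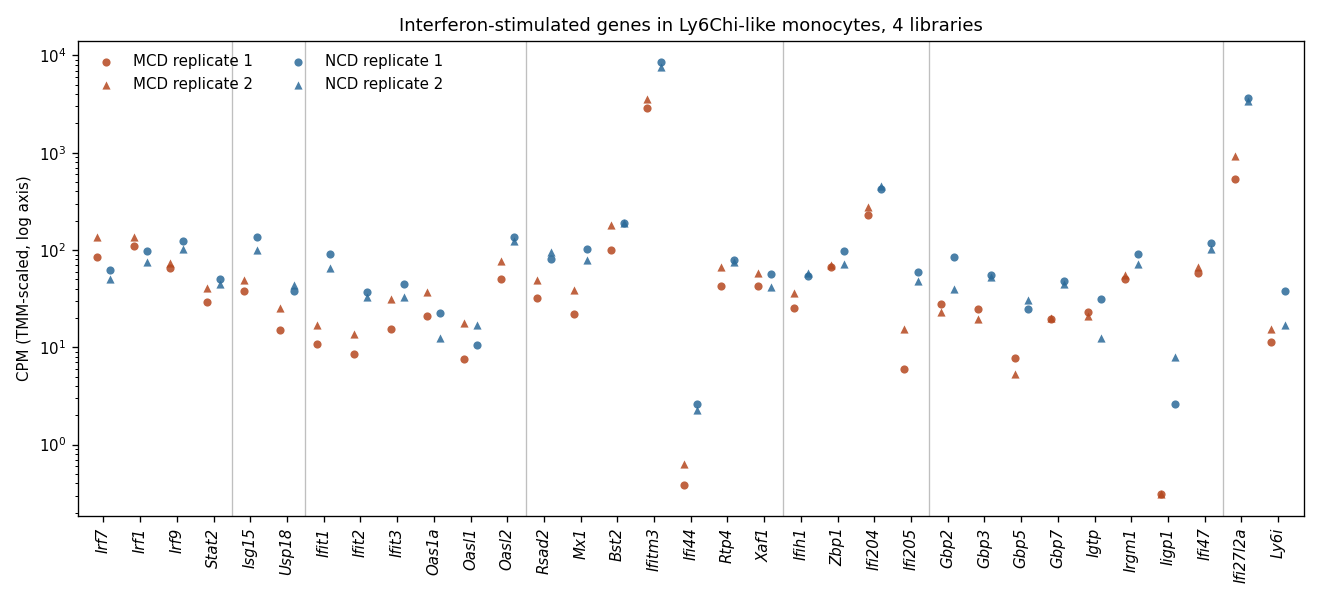
Level of each of the 33 genes in Ly6Chi-like monocytes, with CPM after TMM scaling on a log axis, MCD libraries left of NCD libraries for each gene, 1 point per library and grey lines between roles. Irf7 and Irf1 have both MCD points above both NCD points, and Ifitm3 and Ifi27l2a stand above all other genes in level.

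Among the transcription factors, Irf7, the factor that amplifies type I interferon production, had 84.4 and 137 CPM on MCD and 62.9 and 50.6 CPM on NCD, and the diets did not overlap (log2 fold change 0.97 ± 0.26, adjusted p = 0.0150). Irf1, which drives many interferon gamma targets, had 109.9 and 136 CPM on MCD and 98.3 and 75.3 CPM on NCD (log2 fold change 0.51 ± 0.17, adjusted p = 0.0410). Irf9, the DNA-binding part of the ISGF3 complex, moved the other way: it had 65.9 and 73.5 CPM on MCD and 123 and 102 CPM on NCD (log2 fold change -0.69 ± 0.15, adjusted p = 0.00415). Stat2, the partner of Irf9, missed the threshold (log2 fold change -0.42 ± 0.22, adjusted p = 0.182). The call of Irf7 was lost without NCD replicate 2 and with no filter on low counts, where its adjusted p reached 0.119. The call of Irf1 was lost in 5 of 12 alternatives, with an adjusted p of up to 0.27.

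Isg15, a ubiquitin-like protein that is attached to other proteins after interferon, had 37.6 and 49.7 CPM on MCD and 136 and 98.96 CPM on NCD (log2 fold change -1.42 ± 0.19, adjusted p = 1.99e-04). Usp18, the protease that removes Isg15 and also dampens the type I receptor, had 15.2 and 25.2 CPM on MCD and 38.0 and 43.9 CPM on NCD (log2 fold change -1.03 ± 0.29, adjusted p = 0.0204). Both were below every NCD library in both MCD libraries. The call of Usp18 was lost in 6 of 12 alternatives, with an adjusted p of up to 0.289.

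Of the effectors that bind or help degrade RNA, 3 of 6 fell and none rose. Ifit1, which binds RNA without the host's cap methylation, showed the largest fall among them, with 10.8 and 17.2 CPM on MCD and 91.8 and 65.2 CPM on NCD (log2 fold change -2.48 ± 0.26, adjusted p = 3.16e-05). Ifit2, its neighbour on chromosome 19, had 8.62 and 13.8 CPM on MCD and 36.7 and 32.6 CPM on NCD (log2 fold change -1.63 ± 0.30, adjusted p = 0.00174). Oasl2, of the 2′-5′-oligoadenylate synthetase-like family, had 50.1 and 77.3 CPM on MCD and 136 and 125 CPM on NCD (log2 fold change -1.03 ± 0.20, adjusted p = 0.00287). Ifit3, Oas1a and Oasl1 did not pass, with log2 fold changes between -0.71 and 0.78. Ifit3, Oas1a and the Gbp and Ifi200 genes have near-identical relatives, and reads that match several of them may be missing from the counts.

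Of the other antiviral effectors, 3 of 7 fell and none rose. Ifitm3, a membrane protein that blocks the entry of viruses and the most abundant of the 33, had 2879.7 and 3559 CPM on MCD and 8522 and 7537 CPM on NCD (log2 fold change -1.32 ± 0.12, adjusted p = 1.58e-05). Mx1, a dynamin-like antiviral GTPase, had 21.9 and 39.3 CPM on MCD and 104 and 79.8 CPM on NCD (log2 fold change -1.58 ± 0.27, adjusted p = 0.00125). Rsad2, the radical-SAM enzyme viperin, had 32.3 and 49.8 CPM on MCD and 80.0 and 95.6 CPM on NCD (log2 fold change -1.10 ± 0.22, adjusted p = 0.00342). Bst2, the tetherin that holds virions at the cell surface, did not pass, with 99.5 and 179.9 CPM on MCD and 187 and 189 CPM on NCD (log2 fold change -0.43 ± 0.24, adjusted p = 0.195). MCD replicate 2 lay close to the NCD libraries for Bst2, and MCD replicate 1 lay well below them. Ifi44 had 2 UMIs in each NCD library of this class and did not pass here, but fell in the sum of the 4 monocyte and macrophage classes, with 0.379 and 1.01 CPM on MCD and 7.44 and 4.70 CPM on NCD (log2 fold change -3.12 ± 0.59, adjusted p = 0.00392). In that sum the C1q macrophage-like class, with 1 and 1 MCD cells, gave 10 and 5 Ifi44 UMIs on NCD, so class mix enters this fall. The call in the sum held in 13 of 17 alternatives. Rtp4 and Xaf1 did not pass.

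Of the nucleic acid sensors, 3 of 4 fell. Ifi205, an Ifi200-family protein, had 5.93 and 15.4 CPM on MCD and 59.0 and 48.4 CPM on NCD (log2 fold change -2.32 ± 0.41, adjusted p = 0.00127). Ifi204, of the same family, had 227 and 275 CPM on MCD and 426 and 452 CPM on NCD (log2 fold change -0.81 ± 0.12, adjusted p = 5.33e-04). Ifih1, the double-stranded RNA sensor MDA5, had 25.4 and 36.5 CPM on MCD and 53.8 and 58.5 CPM on NCD (log2 fold change -0.86 ± 0.22, adjusted p = 0.0135). The call of Ifih1 held in 7 of 12 alternatives. Zbp1, a sensor of Z-form nucleic acid, missed the threshold (log2 fold change -0.30 ± 0.16, adjusted p = 0.185).

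The interferon-inducible GTPases, which attack the vacuoles of intracellular pathogens, were lower in 7 of 8 cases and higher in none. Gbp5, which also promotes inflammasome activity, had 7.70 and 5.35 CPM on MCD and 24.9 and 30.4 CPM on NCD (log2 fold change -2.09 ± 0.30, adjusted p = 3.75e-04). Gbp3 had 24.9 and 19.6 CPM on MCD and 55.1 and 52.9 CPM on NCD (log2 fold change -1.27 ± 0.20, adjusted p = 6.35e-04). Gbp7 had 19.8 and 19.9 CPM on MCD and 48.5 and 45.0 CPM on NCD (log2 fold change -1.23 ± 0.19, adjusted p = 4.65e-04). In all 3 both MCD libraries lay well below both NCD libraries. Gbp2 had 27.9 and 23.1 CPM on MCD and 83.9 and 39.4 CPM on NCD (log2 fold change -1.24 ± 0.27, adjusted p = 0.00468), with the NCD libraries far apart. Ifi47 had 58.0 and 67.1 CPM on MCD and 119 and 102 CPM on NCD (log2 fold change -0.82 ± 0.15, adjusted p = 0.00164). Irgm1, which regulates the other immunity-related GTPases, had 50.9 and 55.9 CPM on MCD and 90.5 and 72.0 CPM on NCD (log2 fold change -0.60 ± 0.16, adjusted p = 0.0146). The call of Irgm1 held in 8 of 12 alternatives, and with library totals its log2 fold change was -0.09. Iigp1 passed as well (log2 fold change -4.05 ± 0.83, adjusted p = 0.00363) but rests on 2 and 7 UMIs in the NCD libraries. Igtp did not pass.

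Ifi27l2a, a mitochondrial protein induced by type I interferon, had 537 and 935 CPM on MCD and 3669.7 and 3393 CPM on NCD (log2 fold change -2.26 ± 0.20, adjusted p = 1.04e-05), the second most abundant gene of the 33 on NCD. Ly6i, of the Ly6 surface family, had 11.4 and 15.3 CPM on MCD and 38.0 and 16.9 CPM on NCD (log2 fold change -1.004 ± 0.34, adjusted p = 0.0420), and MCD replicate 2 lay close to NCD replicate 2. The call of Ly6i held in 7 of 12 alternatives.

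In Ly6Clo-like monocytes, the cells that crawl along the inside of vessels, 31 of the 33 genes could be tested, 12 fell and 2 rose, against 13.6% of all 7613 genes tested that fell and 13.9% that rose. The median log2 fold change was -0.70 over the 31 and 0.01 over all genes. With library totals the median of all genes moved to 0.33 and that of the 31 to -0.38, with 7 lower and 2 higher. Of all 7613 genes tested 2545 passed there in either direction. The 2 that rose were again Irf7, with 79.9 and 106 CPM on MCD and 24.999 and 50.1 CPM on NCD (log2 fold change 1.33 ± 0.29, adjusted p = 0.00381), and Irf1, with 189 and 149 CPM on MCD and 110.4 and 78.4 CPM on NCD (log2 fold change 0.83 ± 0.20, adjusted p = 0.00734). Ifit1 had 0.923 and 7.78 CPM on MCD and 31.2 and 21.8 CPM on NCD (log2 fold change -2.41 ± 0.61, adjusted p = 0.00988), and Ly6i had 36.9 and 46.7 CPM on MCD and 135 and 95.8 CPM on NCD (log2 fold change -1.45 ± 0.22, adjusted p = 2.68e-04). Ifitm3 had 2561 and 3185 CPM on MCD and 4496 and 4937 CPM on NCD (log2 fold change -0.71 ± 0.09, adjusted p = 8.41e-05). Ifi27l2a had 497 and 738 CPM on MCD and 1321 and 1446 CPM on NCD (log2 fold change -1.16 ± 0.15, adjusted p = 5.84e-05). Gbp2, Gbp5, Gbp7, Irgm1, Ifi204, Ifi205, Ifit2 and Mx1 were the other genes that fell, by 0.47 to 1.92 on the log2 scale. Only Ifitm3, Ifi27l2a and Ly6i passed under all 11 alternatives tried for this class, and the number that fell dropped to 3 without NCD replicate 1, to 5 without NCD replicate 2 and to 6 without MCD replicate 1. In this class markers of C1q macrophages took 0.492% and 0.557% of UMIs on MCD and 0.176% and 0.193% on NCD, and those of Kupffer cells 0.0779% and 0.0569% on MCD and 0.0135% and 0.0132% on NCD. Ribosomal protein genes took 17.5% and 17.2% on MCD and 25.5% and 25.1% on NCD, and mitochondrial genes 3.55% and 3.24% on MCD and 7.61% and 7.30% on NCD; the part of all these in the result was not tested.

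The sum of the Ly6Chi-like, Ly6Clo-like, lipid-associated macrophage-like and C1q macrophage-like classes gave 22 genes lower and 1 higher, Irf7, of 33, against 19% and 20.9% of all 11128 genes tested. The lipid-associated macrophage-like class had 345 and 280 MCD cells and 2 and 5 NCD cells and the C1q macrophage-like class 1 and 1 MCD cells and 200 and 141 NCD cells, so class mix enters this sum. With equal weight to each class, which left the Ly6Chi-like and Ly6Clo-like monocytes, 20 fell and 2 rose. Of all 8821 genes tested 3347 passed there in either direction. With library totals 17 fell and 4 rose, while the median of all genes moved from 0.02 under TMM to 0.40. In that fit 5369 of 11128 genes passed in either direction. Without NCD replicate 1, 14 fell and none rose, and without NCD replicate 2, 15 fell and none rose. In all retained cells, which needs no clusters, 14 of 33 fell and 3 rose, against 22.9% and 26.1% of 12740 genes.

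The cDC2-like cells, which are conventional dendritic cells that present antigen to CD4+ T cells, had lower Ifitm3 and Ifi27l2a on MCD, and 5 of 8 GTPases fell under TMM scaling, while none of their 3 Ifit genes fell. Here 9 of 33 genes fell and 3 rose, against 15.5% and 14.9% of 9003 genes tested, and the median was -0.35 over the 33 and 0.05 over all genes. Without NCD replicate 1, 2 fell and 3 rose, and without MCD replicate 2, 15 fell and 3 rose. With library totals the split turned, as 3 fell (Ifitm3, Iigp1, Ifi27l2a) and 7 rose (Irf7, Irf1, Stat2, Ifit2, Ifit3, Rsad2, Xaf1). Of all 9003 genes tested 4679 passed there in either direction. The median of the 33 moved to 0.29 and stayed below that of all genes, which moved to 0.68. Irf7 had 45.2 and 61.5 CPM on MCD and 19.7 and 18.2 CPM on NCD (log2 fold change 1.498 ± 0.28, adjusted p = 0.00187). Irf1 had 91.8 and 109 CPM on MCD and 60.4 and 54.5 CPM on NCD (log2 fold change 0.81 ± 0.18, adjusted p = 0.00524), and both passed under all 8 alternatives tried for this class. Ifit3, named after its values were seen, had 31.8 and 25.6 CPM on MCD and 12.3 and 7.57 CPM on NCD (log2 fold change 1.48 ± 0.34, adjusted p = 0.00616), which rests on 10 and 5 UMIs in the NCD libraries and lost its call without NCD replicate 2. Ifitm3 had 1678 and 2022 CPM on MCD and 4927 and 4631 CPM on NCD (log2 fold change -1.37 ± 0.11, adjusted p = 4.26e-06). Ifi27l2a had 191 and 317 CPM on MCD and 1468 and 1310.0 CPM on NCD (log2 fold change -2.45 ± 0.19, adjusted p = 2.79e-06). Gbp3, Gbp5, Irgm1, Iigp1, Ifi47, Isg15 and Ly6i were the others that fell under TMM scaling, and Isg15 and Gbp5 passed in 3 of 8 alternatives. The summed share of the GTPases was 0.019996% and 0.0264% on MCD and 0.0316% and 0.0238% on NCD, and there the diets overlapped. In this class ribosomal protein genes took 24.4% and 23.8% of UMIs on MCD and 39.1% and 37.4% on NCD, and mitochondrial genes 3.16% and 3.20% on MCD and 7.13% and 6.92% on NCD. Markers of lipid-associated macrophages took 0.184% and 0.185% on MCD and 0.0494% and 0.0487% on NCD, and those of cDC1 cells 0.104% and 0.0824% on MCD and 0.0357% and 0.0395% on NCD; the part of all these in the result was not tested.

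Whether the diet effect differed between classes was tested by a class by diet term with library as a block. Against the Ly6Chi-like monocytes, the Ly6Clo-like monocytes differed for 2 of 32 genes, Ifi27l2a and Ifitm3, against 2.09% of 8411 genes with a higher term. The term was 1.12 ± 0.11 for Ifi27l2a (adjusted p = 9.75e-10) and 0.60 ± 0.10 for Ifitm3 (adjusted p = 1.19e-04), so both fell less in the Ly6Clo-like cells. The call of Ifitm3 was lost without either MCD replicate. The cDC2-like cells differed for 4 of 33 genes, all higher, against 0.251% of 9569 genes: Ifit1 by 2.31 ± 0.31, Ifit2 by 1.99 ± 0.35, Rsad2 by 1.79 ± 0.28 and Ifi205 by 2.18 ± 0.48, with adjusted p-values of 3.25e-04, 0.00618, 0.00201 and 0.0392. All 4 were below NCD in the Ly6Chi-like monocytes, and none of them fell in the cDC2-like cells. This comparison was added after the values were seen, and no gene of the 4 passed without NCD replicate 1. The term of Ifi205 passed in 3 of 7 alternatives, where it ran from 1.38 to 3.21, with an adjusted p of up to 0.63. The liver endothelial cells, compared in the same way, differed for 7 of 33 genes, all higher, against 6.52% of 9802 genes.

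**Figure D2:**
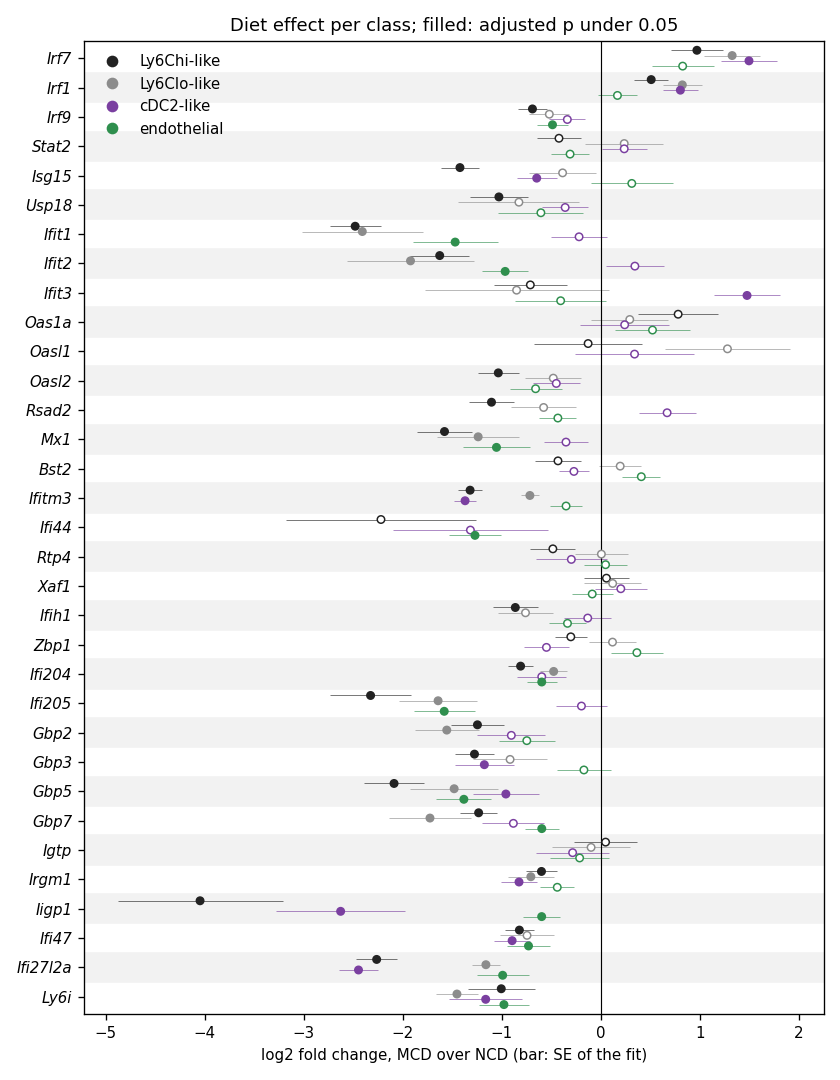
Log2 fold change, MCD over NCD, of each gene in 4 classes, with bars for the SE of the fit and filled points for an adjusted p under 0.05. Irf7 and Irf1 lie right of 0 in every class, and the cDC2-like points of Ifit1, Ifit2 and Ifit3 lie at -0.22, 0.35 and 1.48, right of the Ly6Chi-like points at -2.48, -1.63 and -0.71.

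In liver endothelial cells 13 of 32 genes fell and none rose, against 13.8% and 16.5% of 9569 genes tested. The genes that fell were Irf9, Ifit1, Ifit2, Mx1, Ifi44, Ifi204, Ifi205, Gbp5, Gbp7, Iigp1, Ifi47, Ifi27l2a and Ly6i. Only Ifi205, Gbp5 and Ifi44 passed under all 8 alternatives tried for this class. Irf9 passed in 1 of them and the others in 4 to 7, Iigp1 in 4. Iigp1, low in monocytes, had 79.9 and 86.0 CPM on MCD and 149.6 and 105 CPM on NCD in this class (log2 fold change -0.60 ± 0.19, adjusted p = 0.0295). The MCD cells of this class lie mainly in clusters 11 and 18 and the NCD cells in 7 and 15. Markers of C1q macrophages took 0.475% and 0.566% of its UMIs on MCD and 0.284% and 0.310% on NCD, those of Ly6Chi monocytes 0.426% and 0.416% on MCD and 0.389% and 0.365% on NCD, and mitochondrial genes 4.74% and 4.45% on MCD and 8.01% and 8.01% on NCD; the part of these in the result was not tested. DESeq2 called 4 lower and none higher, and without MCD replicate 1 the count was 8 lower and 5 higher. In migratory DC-like cells (cluster 12 for MCD and 21 for NCD cells) 3 of 21 genes fell (Ifitm3, Gbp5, Ifi27l2a) and none rose, against 4.37% and 5.81% of 5630 genes. In NK and ILC1-like cells (mainly cluster 22 for MCD and 14 for NCD cells) 2 of 5 fell (Ifitm3, Ifi27l2a) and 1 rose, against 12.4% and 8.85% of 2157 genes. The gene that rose there was Irf1, with 285 and 273 CPM on MCD and 115 and 116 CPM on NCD (log2 fold change 1.27 ± 0.33, adjusted p = 0.0127). In the unnamed cluster rich in S100a8 and Top2a, with 20 and 26 MCD cells and 50 and 54 NCD cells, 2 of 15 fell and none rose, against 8.62% and 6.35% of 5461 genes. Ifi27l2a was among the genes called lower in each of these classes, although the endothelial call was lost in 2 of 8 alternatives. In MCD NK and ILC1-like cells it had 4 and 7 UMIs, or 16.1 and 44.4 CPM, which is no more than the 35.7 and 74.8 CPM of the unnamed MCD cells rich in Ccr3 and Retnlg, so its level there cannot be told from background.

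The 33 genes together took a smaller share of UMIs on MCD in the Ly6Chi-like, Ly6Clo-like, cDC2-like and endothelial classes. Ifitm3 and Ifi27l2a made most of that share in each class, by a smaller margin in the endothelial class. In Ly6Chi-like monocytes the share was 0.565% and 0.723% on MCD and 1.19% and 1.14% on NCD, with a mean of 0.644% ± 0.112 on MCD and 1.17% ± 0.0369 on NCD (SD, n = 2 libraries each). The exact 95% binomial intervals, which cover counting error only, were 0.561% to 0.569% and 0.718% to 0.728% on MCD and 1.17% to 1.21% and 1.12% to 1.16% on NCD. Ifitm3 alone took 0.349% and 0.417% on MCD and 0.692% and 0.654% on NCD. Ifi27l2a took 0.0651% and 0.109% on MCD and 0.298% and 0.295% on NCD. The other 31 genes took 0.151% and 0.197% on MCD and 0.202% and 0.190% on NCD, and there the diets overlapped. These shares are of all UMIs, with no TMM factor, and an exact permutation test of 2 against 2 libraries gives no two-sided p below 0.33. In cDC2-like cells the share of all 33 was 0.355% and 0.441% on MCD and 0.604% and 0.597% on NCD, but that of the other 31 was higher on MCD, with 0.123% and 0.150% on MCD and 0.110% and 0.1002% on NCD. In Ly6Clo-like cells the other 31 took 0.120% and 0.134% on MCD and 0.142% and 0.115% on NCD. In the unnamed cluster rich in Ccr3 and Retnlg the 33 genes took 0.0883% and 0.123% of UMIs on MCD and 0.169% and 0.255% on NCD, and 3 of 16 genes fell (Gbp2, Ifi47, Rsad2) and none rose, against 0.587% and 1.11% of 4773 genes. There Ifitm3 took 0.0215% and 0.0402% of UMIs on MCD and 0.0278% and 0.0157% on NCD, far below its share in monocytes. Lipid-associated macrophage-like cells, almost all from MCD, gave 0.292% and 0.444% to the 33 genes, and C1q macrophage-like cells, almost all from NCD, gave 0.775% and 0.945%.

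**Figure D3:**
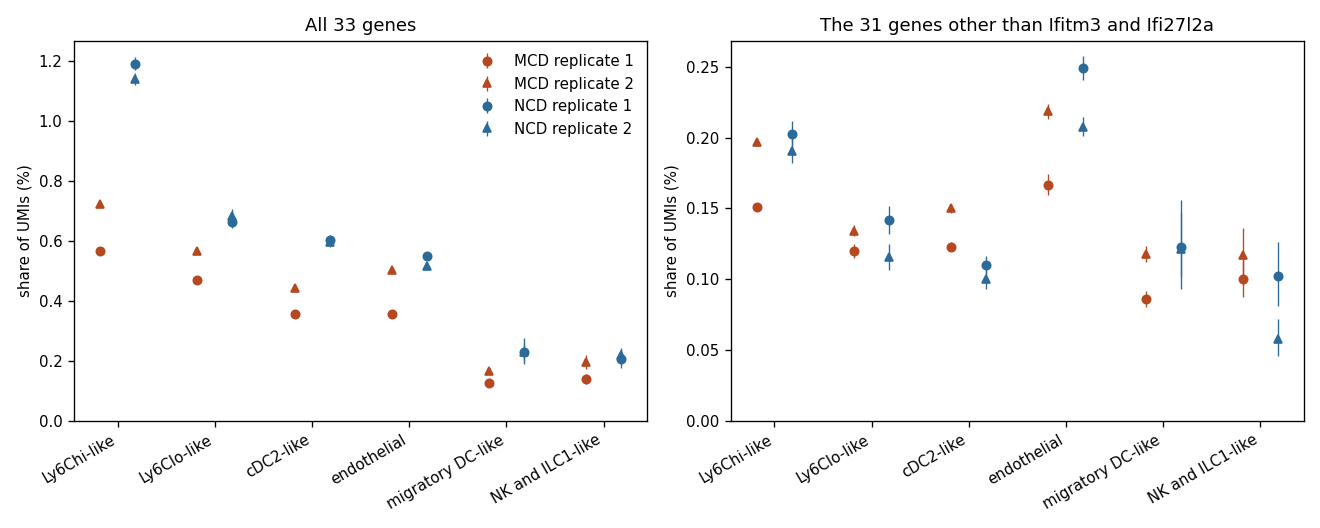
Share of a class's UMIs (%) that falls on all 33 genes (left) and on the 31 genes other than Ifitm3 and Ifi27l2a (right), 1 point per library with its exact 95% binomial interval, MCD left of NCD in each class. On the left every MCD library lies below both NCD libraries of its class; on the right the Ly6Chi-like libraries overlap, at 0.151% and 0.197% on MCD and 0.202% and 0.190% on NCD.

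Within the libraries the Ly6Clo-like monocytes held less of most of these transcripts than the Ly6Chi-like monocytes. In a fit with library as a block, 25 of 32 genes were lower in Ly6Clo-like cells and 1 was higher, against 15.6% and 12.5% of 8411 genes tested, and the median log2 difference, Ly6Clo-like over Ly6Chi-like, was -0.68. The largest differences among the 25 lower genes were Ifit3 at -2.07 ± 0.26 (adjusted p = 8.24e-06), Ifit1 at -1.73 ± 0.22 (adjusted p = 1.04e-05), Usp18 at -1.64 ± 0.20 (adjusted p = 4.92e-06) and Isg15 at -1.55 ± 0.17 (adjusted p = 1.20e-06). Ly6i was the gene that was higher in Ly6Clo-like cells, at 1.58 ± 0.13 (adjusted p = 5.29e-08). Its values in Ly6Clo-like cells were 36.9 and 46.7 CPM on MCD and 135 and 95.8 CPM on NCD, and in Ly6Chi-like cells 11.4 and 15.3 CPM on MCD and 38.0 and 16.9 CPM on NCD. Irf1, Oasl1, Ifi205, Gbp2, Gbp5 and Iigp1 did not pass. Of the 26 calls, 19 passed under all 7 alternatives tried.

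The 2 MCD libraries differed from each other for most of the genes outside the GTPases, a split by role that was made after the values were seen. They also differed in counting, with 27998 genes for replicate 1 and 28692 for replicate 2, and the part of this was not tested. In Ly6Chi-like monocytes all 25 genes other than the GTPases were higher in MCD replicate 2 than in MCD replicate 1, with a median ratio of 1.53, computed on CPM with 1 added. Of these 25, 14 were past 1.5-fold, against 2.74% of the 10087 genes tested. The 8 GTPases had a median ratio of 0.953, and 4 of them were higher in replicate 2. Oasl1 had a ratio of 2.22, Ifi205 of 2.37, Ifit3 of 1.95, Bst2 of 1.80 and Irf7 of 1.62, while Gbp5 had 0.730, Gbp3 0.794 and Gbp2 0.836. Between the NCD libraries the median ratio over the same 25 genes was 0.884, 6 were higher in replicate 2 and 1 was past 1.5-fold, against 15.1% of genes. The same split stood in the sum of the 4 monocyte and macrophage classes, where 25 of 25 and 4 of 8 were higher in MCD replicate 2, with medians of 1.54 and 0.966. The share of all genes that were higher in replicate 2 is not given. Only the 1.5-fold counts can thus be set against all genes. These are values of 2 libraries and carry no test.

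**Figure D4:**
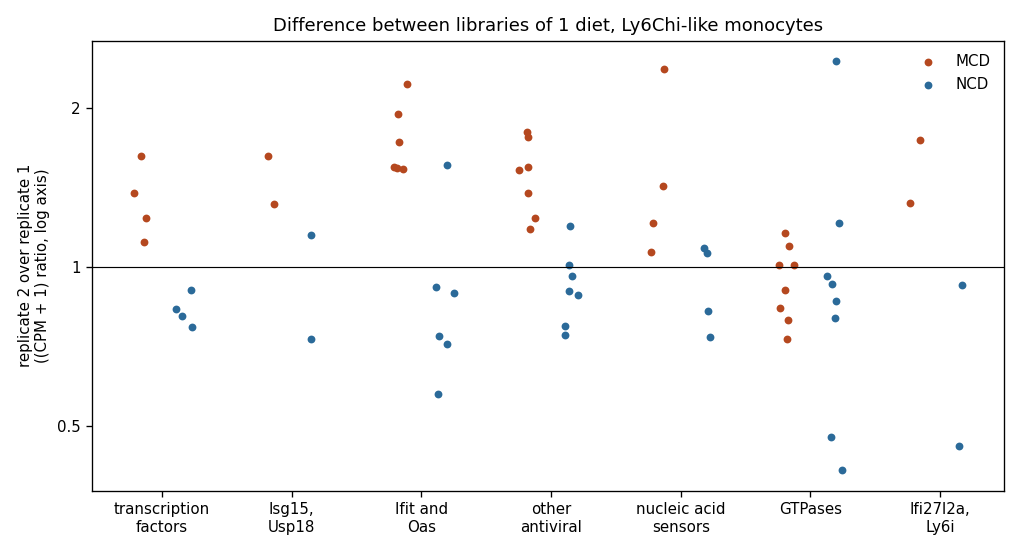
Ratio of replicate 2 to replicate 1 within each diet for every gene in Ly6Chi-like monocytes, by role, as (CPM + 1) ratios on a log axis with MCD left of NCD. All 25 MCD points outside the GTPases lie above 1, and the 8 MCD points of the GTPases lie around 1.

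Interferon transcripts themselves were rare. Among 11 ligand genes listed, 6 had no UMI in any retained cell, and Ifnab, Ifnl2 and Ifnk had 1 to 3 UMIs in all. Ifnb1, which encodes interferon beta, had 7 and 222 UMIs in MCD replicates 1 and 2, in 6 and 52 cells, and 6 and 0 UMIs in NCD replicates 1 and 2, in 4 and 0 cells. In MCD replicate 2 the highest cell held 35 of them, and 68 were in 17 cells of the unnamed cluster rich in Cxcl10 and Saa3, which has 339 and 408 MCD cells and 2 and 1 NCD cells. MCD replicate 2 was thus the library with the most Ifnb1 and the MCD library with the higher level of the 25 genes above; whether the 2 are linked was not tested. Ifng, the gene of interferon gamma, had 4.32 and 2.65 CPM in all retained cells of the MCD libraries and 5.04 and 9.02 CPM in those of the NCD libraries (146 and 102 UMIs on MCD, 23 and 47 on NCD), and did not pass there (log2 fold change -1.03 ± 0.38, adjusted p = 0.0623). In NK and ILC1-like cells, which make interferon gamma, it rose, with 449.6 and 457 CPM on MCD and 129 and 231 CPM on NCD (log2 fold change 1.25 ± 0.30, adjusted p = 0.00703). This rests on 30 and 25 MCD cells and 44 and 90 NCD cells. The class held 112 of the 146 Ifng UMIs of MCD replicate 1, where the highest cell held 54. In MCD replicate 2 it held 72 of 102, and the highest cell of that library held 19. Ifng fell in the endothelial class, with 1.54 and 1.94 CPM on MCD and 9.60 and 7.74 CPM on NCD (log2 fold change -2.19 ± 0.52, adjusted p = 0.00815). That call rests on 2 and 6 MCD UMIs and 12 and 14 NCD UMIs. The 12 of NCD replicate 1 lay in 6 cells of cluster 7, and whether these are doublets was not tested.

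The other parts of the pathway were measured in the sum of the 4 monocyte and macrophage classes, where 19% of all genes tested fell and 20.9% rose. Class mix enters this sum, as said above. Among the receptors and kinases, Jak2, which serves the interferon gamma receptor, fell by 0.45, while Tyk2, a kinase of the type I receptor, rose by 0.51 and Ifngr1, a chain of the interferon gamma receptor, by 0.31 on the log2 scale. Neither rise was called in the Ly6Clo-like monocytes, and no more than 1 of them in the Ly6Chi-like monocytes. Of 10 brakes, 4 fell and 3 rose. Socs3, which mainly restrains STAT3 signals, had 384 and 384 CPM on MCD and 132 and 106 CPM on NCD (log2 fold change 1.69 ± 0.12, adjusted p = 3.31e-05). Ptpn1, a phosphatase that acts on JAK2 and TYK2, rose by 1.28, and Irf2, which competes with Irf1 for its sites, fell by 1.21 on the log2 scale. Socs1, the brake on interferon gamma, was also lower (log2 fold change -1.63 ± 0.19, adjusted p = 3.64e-04). Of 18 genes of nucleic acid sensing, 6 rose and 5 fell, and Irf5 (1.19 ± 0.09), Ikbke (1.54 ± 0.17), Ticam1 (1.61 ± 0.21) and Myd88 (0.63 ± 0.12), which carry signals from Toll-like receptors, were among those that rose, in log2 fold change ± SE.

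In the same sum, where 19% of all genes tested fell and 20.9% rose, further targets of interferons were counted. Of 48 further type I targets 15 fell and 4 rose, with a median log2 fold change of -0.33. Cxcl10, a chemokine for T cells, had 79.4 and 131 CPM on MCD and 498 and 481 CPM on NCD (log2 fold change -2.22 ± 0.21, adjusted p = 1.33e-04). The 4 classes leave out the MCD cluster rich in Cxcl10 and Saa3 and hold the C1q macrophage-like cluster of NCD cells, which has Cxcl10 and Cxcl9 among its leading genes. With the Cxcl10-rich cluster added the log2 fold change of Cxcl10 was -0.98 (adjusted p = 4.17e-04), and in the Ly6Chi-like and Ly6Clo-like monocytes alone it was -1.32 (adjusted p = 2.51e-04). Dtx3l and Mndal fell by 1.16 and 1.56 while Slfn2 rose by 1.24. Of 31 further interferon gamma targets 17 fell and 8 rose, with a median of -0.44. Cxcl9, another such chemokine, named after its values were seen, had 42.4 and 26.0 CPM on MCD and 516 and 231 CPM on NCD (log2 fold change -3.45 ± 0.36, adjusted p = 2.30e-04). Over the alternatives its log2 fold change ran from -5.81 without lipid-associated macrophage-like cells to -1.72 with a 20% mitochondrial limit. Gbp4 and B2m, the light chain of MHC class I, fell by 2.19 and 1.14, but Psmb10, a subunit of the immunoproteasome, and Tap2, of the peptide transporter, rose by 2.13 and 1.36 on the log2 scale. In the Ly6Chi-like monocytes alone Cxcl10, Cxcl9, Gbp4 and B2m fell and Psmb10, Tap2 and Socs3 rose as well. Class by class the split of the further interferon gamma targets differed. In Ly6Chi-like monocytes 10 of 28 fell and 6 rose, and in Ly6Clo-like monocytes 7 of 23 fell and 6 rose. In cDC2-like cells 6 of 26 fell and 10 rose, and in endothelial cells 3 of 26 fell and 8 rose. In migratory DC-like cells 1 of 23 fell and 9 rose, and in all retained cells 9 of 31 fell and 10 rose. The shares over all genes in these classes are given above.

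Cell by cell, the distribution over Ly6Chi-like monocytes lay lower on MCD over most of its range. Each cell was thinned to 1000 UMIs, which left out 0 and 2 MCD cells and 1 and 1 NCD cells. The median cell held 5 and 6 UMIs of the 33 genes on MCD and 11 and 11 on NCD, and the quartiles ran from 3 to 7 and 4 to 9 on MCD and from 8 to 15 and 8 to 14 on NCD. The variance over the mean was 2.60 and 2.47 on MCD and 3.18 and 3.09 on NCD, where 1 is the value of pure counting. Without Ifitm3, Ifi27l2a and Ifi204, the 3 with the most UMIs, the median was 1 in each library and the variance over the mean was 3.88 and 3.27 on MCD and 3.20 and 3.87 on NCD, so the diets overlapped. In that count the 5% of cells with the most held 29.4% and 27.2% of the UMIs on MCD and 28.8% and 31.7% on NCD, and the highest cell held 42 and 28 UMIs on MCD and 14 and 20 on NCD. The variance of the sum of these 30 genes was 3.08 and 2.59 times the sum of their variances on MCD and 2.43 and 2.82 times on NCD, so counts of different genes went together within cells on both diets.

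**Figure D5:**
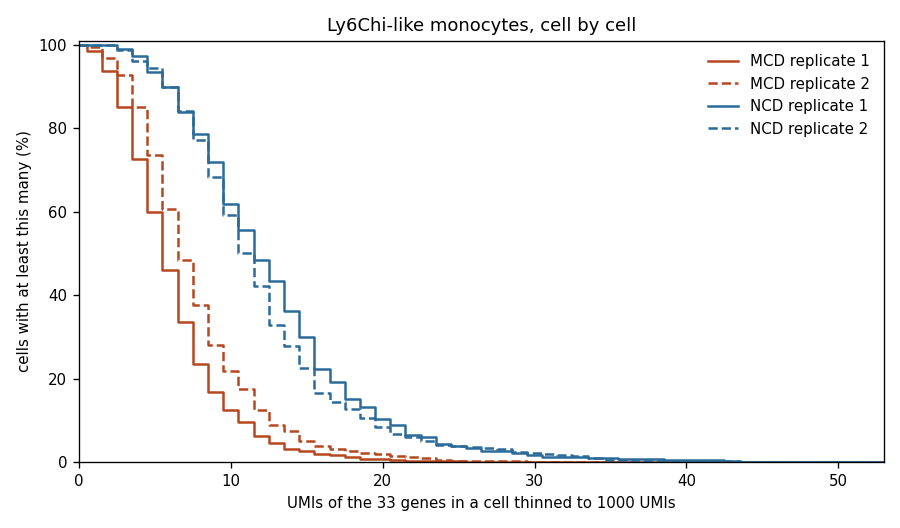
Share of Ly6Chi-like monocytes (%) that hold at least a given number of UMIs of the 33 genes after each cell was thinned to 1000 UMIs, 1 line per library. Both MCD lines lie left of both NCD lines over most of the range, with medians of 5 and 6 UMIs on MCD and 11 and 11 on NCD.

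The genes differed in how far their transcripts sat in the same few cells. Ly6Chi-like cells were ranked by their UMIs of the other genes, leaving out the 3 most abundant, and the mean in the highest 10% of cells was set over that in the rest. Over the cells of both MCD libraries this ratio was 54.7 for Ifit3, 47.7 for Ifit2 and 43.2 for Ifit1, and over those of both NCD libraries it was 21.7, 19.8 and 23.7. For Ifit1 that is 29 UMIs in 167 cells against 6 in 1494 cells on MCD, and 48 UMIs in 94 cells against 18 in 836 cells on NCD. Isg15 had a ratio of 5.75 on MCD and 9.54 on NCD, Rsad2 of 7.92 on MCD and 16.3 on NCD, and Irf7 of 4.19 on MCD and 3.66 on NCD, the last resting on 14 UMIs in the highest cells. Ifitm3, with 1.29 on MCD and 1.16 on NCD, Irf1, with 1.20 on MCD and 0.695 on NCD, and Irf9, with 0.451 on MCD and 0.7501 on NCD, were near 1 or below it. These ratios describe the cells of 4 libraries and carry no test.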

How the data were processed

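Liver cells were sorted and sequenced in 4 droplet libraries, 2 per diet. The deposited matrices hold whole-number UMI counts per gene and cell barcode, made with Cell Ranger 3.0.2 per the file headers, on mm10 per the submitters' processing notes. The 33 genes, the other lists and the marker lists were chosen with earlier results of these data known. A barcode was kept with 200 genes or more and no more than 10% mitochondrial UMIs, which left 9609 of 12306. They were clustered (2000 variable genes without interferon genes, 30 principal components, 15 neighbours, Leiden resolution 1, leidenalg 0.10.2) into 25 clusters, and classes were named from at least 3 markers. UMI counts were summed per class and library and tested with edgeR 4.0.16 in R 4.3.3 (TMM, filterByExpr, quasi-likelihood F test, Benjamini-Hochberg, threshold 0.05), for classes with at least 20 cells in every library. The scripts were tested on simulated data. One gene of the other lists is not reported here, nor is the count of its list.

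Total UMIs were 32975974 and 37772284 in the MCD libraries and 7518597 and 7428431 in the NCD libraries. Values per library were given for genes that passed in the monocyte and macrophage sum or in either monocyte class and for the 10 most abundant, and up to 4 genes of each other list were named by the smallest adjusted p in that sum. The replicate numbers were not shown to pair the libraries. As nothing says that libraries came from separate mice, p-values measure only the spread between these libraries. Alternatives were DESeq2 1.42.0, library totals, no filter, each library left out, a replicate block, thinning, a 20% mitochondrial limit, other clusterings and GC content.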

Additional observations from a re-analysis of the deposited data

Results flagged for a closer look

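The diet effect, MCD over NCD, differed between classes for 2 genes in Ly6Clo-like against Ly6Chi-like monocytes, by a class by diet term in edgeR with Benjamini-Hochberg adjustment. The term was 0.60 for Ifitm3, whose log2 fold change was -0.71 in Ly6Clo-like and -1.32 in Ly6Chi-like monocytes. It was 1.12 for Ifi27l2a, with -1.16 in Ly6Clo-like and -2.26 in Ly6Chi-like monocytes.

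In cDC2-like cells against Ly6Chi-like monocytes, a comparison chosen after seeing the data, the term was 2.31 for Ifit1, 1.99 for Ifit2, 1.79 for Rsad2 and 2.18 for Ifi205. Their log2 fold changes were -0.22, 0.35, 0.67 and -0.19 in cDC2-like cells, where none passed the test, and -2.48, -1.63, -1.10 and -2.32 in Ly6Chi-like monocytes.

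In liver endothelial cells against Ly6Chi-like monocytes, also chosen after seeing the data, the term was 1.70 for Isg15, 0.71 for Rsad2, 0.90 for Bst2, 1.01 for Ifitm3, 1.19 for Gbp3, 3.49 for Iigp1 and 1.27 for Ifi27l2a. Of these, Ifitm3 and Ifi27l2a passed under all 7 alternatives. With library totals the median term over all genes moved from 0.04 to -0.40, and 4 of the 33 terms were higher and 1 lower.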

How the results depend on the processing

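Of 3051 values of single genes under the alternatives, 2657 stayed on the same side of the threshold. Changes of direction in genes called in neither setting were not counted. With a call, 1 value turned: Isg15 in endothelial cells, which ran from -0.96 to 0.84 with 1 library left out. The replicate numbers gave a correlation of deviations of 0.091 over 3568 genes in 2 pairs, so they were not taken as pairs. With the replicate number as a block, 26 genes fell and 3 rose in the monocyte and macrophage sum, 24 and 3 in Ly6Chi-like, 11 and 2 in Ly6Clo-like, 13 and 4 in cDC2-like, 18 and 2 in endothelial and 20 and 6 in all retained cells. With library totals, 4 rose in the sum, 4 in Ly6Chi-like and 5 in all retained cells, and 7 fell in Ly6Clo-like cells. In cDC2-like cells 3 fell and 7 rose (median 0.29), and in endothelial cells 8 fell and 1 rose. The endothelial class by diet term gave 4 higher and 1 lower. Under that setting 6035 of 12740 genes passed in either direction in all retained cells and 2834 of 9569 in endothelial cells. With no filter, 0 rose in the sum, 10 fell and 0 rose in Ly6Chi-like cells, 2 rose in endothelial and 6 in all retained cells, and 7 cDC2 class terms were higher. DESeq2 gave 1 higher in Ly6Chi-like, 7 lower in Ly6Clo-like and 4 lower in endothelial cells, and 4 endothelial class terms. With a 20% mitochondrial limit 2 rose in the sum and 5 in Ly6Clo-like cells. Resolution 0.5 gave 1 higher in Ly6Chi-like cells and no Ly6Clo-like value, and interferon genes kept in the clustering gave 11 lower in Ly6Chi-like cells. In the sum, 2 rose with the Cxcl10-rich cluster, 2 in the Ly6Chi-like and Ly6Clo-like monocytes alone, 2 without lipid-associated macrophage-like cells, 2 with equal class weights and 0 with the GC trend removed. Leaving out 1 library at a time, the counts lower and higher ran from 14 to 27 and 0 to 3 in the sum, 17 to 24 and 0 to 3 in Ly6Chi-like, 3 to 12 and 1 to 2 in Ly6Clo-like, 2 to 15 and 3 to 4 in cDC2-like, 8 to 17 and 0 to 5 in endothelial and 9 to 16 and 1 to 5 in all retained cells. The class terms called ran from 1 to 3 for Ly6Clo-like, 0 to 6 for cDC2-like and 4 to 8 for endothelial cells. The cause of these moves was not tested.

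The MCD to NCD ratio of the summed share without the 3 genes with the most UMIs was 0.792 in the sum, 0.902 in Ly6Chi-like, 1.01 in Ly6Clo-like, 1.32 in cDC2-like and 0.908 in all retained cells. Without Ifitm3 and Ifi27l2a it was 0.788, 0.885, 0.990, 1.30 and 0.904 in the same order. The ratio of variance over mean was 0.860, 0.568 and 1.15 at 2000 UMIs in Ly6Chi-like, Ly6Clo-like and cDC2-like cells, and 1.01, 0.612 and 1.22 without those 3 genes. Cells below 2000 UMIs are left out at that depth, which took many NCD monocytes. Their clusters 2 and 8 had medians of 1985 and 1959 UMIs, against 13025 and 11820 in the MCD clusters 0 and 9. The alternatives for cDC2-like and endothelial cells, for the Cxcl10-rich cluster, for the 2 monocyte classes alone and for Ifitm3 with Ifi27l2a were chosen after seeing the data. Low UMI totals on NCD limit genes such as Ifi44 and Iigp1, and 2 libraries per diet limit every test.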

Other observations

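The unnamed cluster rich in Cxcl10 and Saa3, with 339 and 408 MCD cells and 2 and 1 NCD cells, gave 0.605% and 0.744% of its UMIs to the 33 genes on MCD, and has no NCD counterpart to compare. In the unnamed cluster rich in S100a8 and Top2a, with 20 and 26 MCD cells and 50 and 54 NCD cells, the share was 0.199% and 0.223% on MCD and 0.317% and 0.330% on NCD. The genes other than Ifitm3 and Ifi27l2a went the other way there. They took 0.0904% and 0.0821% on MCD and 0.0579% and 0.0614% on NCD.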
